A study of Homo sapiens with 6 samples.

Results

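Aminoacyl-tRNA synthetases are the enzymes that join each amino acid to its tRNA, and the charged tRNAs carry the amino acids to the ribosome. Human cells use separate nuclear genes for most of the enzymes of the cytosol and of the mitochondrion, while the glycine enzyme GARS1 and the lysine enzyme KARS1 serve both compartments. Many of the cytosolic enzymes are known targets of ATF4, the transcription factor of the amino acid response, and several are held together in the multi-synthetase complex. The serine enzymes SARS1 and SARS2 and the glycine enzyme GARS1 use the amino acids that SHMT2 interconverts.

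The 35 synthetase genes described here were taken as a list of symbols matched by Ensembl identifier to the 63241 genes of the count table. They comprise 19 cytosolic genes, whose symbols end in 1 apart from the phenylalanine subunits FARSA and FARSB, and 16 mitochondrial genes, whose symbols end in 2. The list does not hold the whole family. Expression was measured by RNA-seq of HT-1376, an established human bladder carcinoma cell line, in 3 libraries of cells transfected with a non-targeting siRNA (siNC, labelled WT) and 3 libraries of cells transfected with 1 siRNA against SHMT2 (siSHMT2, labelled as a knockdown). All cells were transfected with a Lipofectamine reagent and were collected a day later, so siNC cells also carry an siRNA and no untransfected library was compared. The libraries held 533689 to 890574 counts, and siSHMT2 replicate 1, the smallest, stood apart from the others on the first principal component with a score of 33.7 against -12.5 to -1.02.

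The strand on which reads were counted bears on every value below. The library kit was strand-specific, the counted reads were a small part of those the study describes as sequenced, and the strand setting of the counting is not given in the sources used here. TALAM1, the antisense transcript of the nuclear lncRNA MALAT1, had 138110 counts in all against 1916 for MALAT1, and it was the higher of the pair in 6 of 6 libraries. TUBA1B-AS1 had 100834 counts against 1488 for the tubulin gene TUBA1B, and BEST1 had 61893 against 1104 for the ferritin gene FTH1, which it overlaps on the opposite strand. MT-ND6, the protein gene that lies alone on the other strand of the mitochondrial genome, had 98918 counts against 11569 for MT-CO1. These examples were chosen after their values were seen. Among 386 protein-coding genes with an overlapping gene named as their antisense and at least 100 counts in the pair, the antisense gene had more counts in 137 (35.5%), and lncRNA genes took 26.1% to 27.2% of the counts of a library. In such a table the counts listed for a synthetase gene may not be the bulk of the reads from its own transcript, and whether they follow the level of that transcript was not tested. The levels and differences below are therefore those of the counts as listed.

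SHMT2, the mitochondrial serine hydroxymethyltransferase, had 34.8, 24.9 and 22.7 CPM (counts scaled to a common library total by TMM) in siNC replicates 1 to 3 and 17.5, 2.61 and 6.27 CPM in siSHMT2 replicates 1 to 3. The groups did not overlap, and siSHMT2 replicate 1 was the highest of its group. On the log2 scale siSHMT2 lay at -1.78 from siNC (standard error 0.48). The unadjusted p was 0.00056 in the quasi-likelihood test of edgeR, rank 4 of the 7207 genes tested. The adjusted p was 0.93 (same test, Benjamini-Hochberg over 7207 genes). The study reports that the siRNA lowered SHMT2 RNA by RT-qPCR and SHMT2 protein by Western blot. The epithelial markers, 9 of 9 with counts and led by KRT8 and KRT18, summed to 5562 to 5913 CPM in siNC and 5430 to 6003 CPM in siSHMT2. In the same libraries the fibroblast, leukocyte and endothelial markers each summed to at most 21.6 CPM, and DCN, PDGFRB, PTPRC, CD3E, LYZ and VWF were at 0 counts.

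The level of each gene was compared on the FPKM scale, in which counts are divided by the listed gene length and the library total. The cytosolic genes had a median FPKM value of 14.0 over the 6 libraries and the mitochondrial genes of 1.35. The asparagine enzyme NARS1 had the highest mean of the cytosolic genes at 46.7 ± 5.87 FPKM (SD, n = 6 libraries), beside the threonine enzyme TARS1 at 39.5 ± 7.02, the serine enzyme SARS1 at 32.9 ± 7.29 and the lysine enzyme KARS1 at 29.3 ± 3.41 FPKM. The order of the first pair depended on the group, since the mean over the siNC libraries was 45.1 FPKM for TARS1 and 42.7 for NARS1, and over the siSHMT2 libraries 33.9 and 50.7. TARS1 differed from SARS1, and SARS1 from KARS1, by less than the spread of the libraries. GARS1, with 156 counts over a listed length of 8433 bases, reached 3.97 ± 1.11 FPKM. The lowest cytosolic gene was FARSB at 1.31 ± 0.348 FPKM, although its partner subunit FARSA, which assembles with it into a single enzyme, was at 14.0 ± 2.98 FPKM. Their listed lengths were 6761 bases and 2057 bases, and their counts summed to 40 and 131. Of the 18 neighbouring pairs in the cytosolic order, 5 differed by more than the spread of all 6 libraries.

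Among the mitochondrial genes the isoleucine enzyme IARS2 was the highest at 10.9 ± 2.60 FPKM, ahead of the threonine enzyme TARS2 at 9.41 ± 3.35 and the cysteine enzyme CARS2 at 8.96 ± 3.01 FPKM. These levels differed by less than the spread of the libraries. CARS2 lay above the histidine enzyme HARS2, at 2.79 ± 0.611 FPKM, and this was the 1 gap of 15 in the mitochondrial order that exceeded the spread. The lowest were the valine enzyme VARS2, listed at 0 in every library, SARS2 and the methionine enzyme MARS2. When the enzymes of the same amino acid were set side by side, the cytosolic gene had the higher FPKM value in all 6 libraries in 14 of 17 pairs. The exceptions were isoleucine, where IARS1 at 6.90 ± 1.03 FPKM was below IARS2 in every library, cysteine, where CARS1 was higher than CARS2 in 1 of 6 libraries, and FARSB, which was higher than FARS2 in 4 of 6. The levels rest on the listed lengths and on few counts for most mitochondrial genes.

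**Figure D1:**
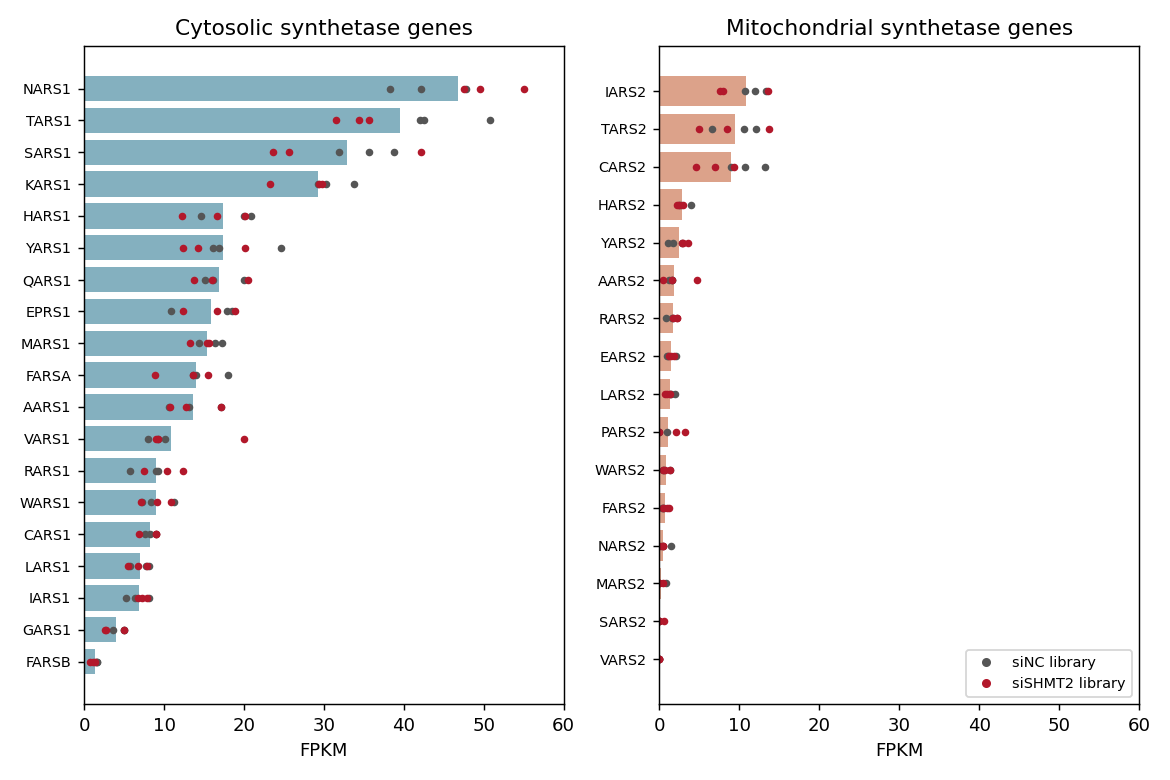
FPKM values of the 19 cytosolic (left) and 16 mitochondrial (right) synthetase genes. Bars give the mean of 6 libraries and points the single libraries of siNC (grey) and siSHMT2 (red); NARS1 has the highest mean at 46.7 FPKM although TARS1 is higher in siNC, and no mitochondrial gene has a mean above 10.9 FPKM.

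A feature that several cytosolic genes shared, and that did not enter the choice of the genes, was a sequence in their promoters. RefSeq promoters (GRCh38.p14, 250 bases before to 50 bases after the start) were found for 16 cytosolic and 14 mitochondrial genes. They were searched on both strands for TGATGNAA, the core letters of the element through which ATF4 binds many amino acid response genes. The letters were present for 7 of 16 cytosolic genes (43.8%) and 1 of 14 mitochondrial genes (7.14%), against 4.46% of 27305 genes with a promoter, where a gene counts if any of its listed promoters holds them. Of the 22 synthetase genes tested below, TARS1 (lower in siSHMT2) and NARS1 (higher) had groups that did not overlap in log2 CPM. That is 9.09%, beside 9.20% of all tested genes. Whether the letters go with a difference in siSHMT2 was not tested. The windows of 30 bases around the matches are shown because they include these genes. They are written 5′ to 3′ on the strand of the gene, and capitals mark the match, which reads TTGCATCA or TTTCATCA where it lies on the opposite strand.
AARS1 (chr16:70289675-70289704, minus strand): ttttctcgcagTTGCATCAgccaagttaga
CARS1 (chr11:3057407-3057436, minus strand): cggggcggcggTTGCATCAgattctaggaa
GARS1 (chr7:30594834-30594863, plus strand): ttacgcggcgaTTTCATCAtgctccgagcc
IARS1 (chr9:92293692-92293721, minus strand): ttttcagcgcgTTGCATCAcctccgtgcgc
MARS1 (chr12:57488053-57488082, plus strand): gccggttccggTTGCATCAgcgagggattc
NARS1 (chr18:57621804-57621833, minus strand): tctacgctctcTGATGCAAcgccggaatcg
TARS1 (chr5:33440956-33440985, plus strand): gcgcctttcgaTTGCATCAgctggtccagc
YARS2 (chr12:32756076-32756105, minus strand): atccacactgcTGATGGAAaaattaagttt
In CARS1, IARS1, MARS1, NARS1 and TARS1 the match began within 15 bases of the RefSeq start, and in AARS1 at position -187 from it. A match of letters is not a measured binding site.

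Of the 35 genes, 22 had at least 60 counts summed over the 6 libraries, and the same 22 passed the filter on low counts and were tested, 18 cytosolic and 4 mitochondrial. None had an adjusted p under 0.05, as for 0.00% of all 7207 genes tested, and the smallest adjusted p of a synthetase gene was 0.999 (edgeR, Benjamini-Hochberg). DESeq2 also gave 0 synthetase genes with an adjusted p under 0.05. SHMT2, the target of the siRNA, did not pass this cut-off in either test. The lack of adjusted calls therefore does not show that the synthetase genes were unchanged. An unadjusted p under 0.05 was reached by 1 of the 22, TARS1, which was lower in siSHMT2, and the background was 3.84% of all tested genes in either direction, 1.90% lower and 1.94% higher. Among the tested synthetase genes, 14 had a log2 fold change below 0 and 8 above 0, where 50.2% of all tested genes lay below 0. Several of these values were near 0. With 1 library left out the number below 0 ran from 13 (without siNC replicate 1) to 17 (without siNC replicate 3). The median log2 fold change was -0.053 for the 18 cytosolic genes and -0.47 for the 4 mitochondrial genes, and that of all tested genes was -0.000999. Without a filter on low counts, where 15 mitochondrial genes entered, the mitochondrial median was 0.11. LARS2 passed the minimum with no count to spare, at a mean of 16.5 CPM in siNC and 10.4 CPM in siSHMT2. With at least 10 counts in every library, which LARS2 did not reach, the median of the 3 mitochondrial genes kept was -0.29. The 95% interval of the log2 fold change included 0 for 21 of the 22 genes. In bulk RNA, fewer cells with a transcript and less of it per cell cannot be told apart.

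**Figure D2:**
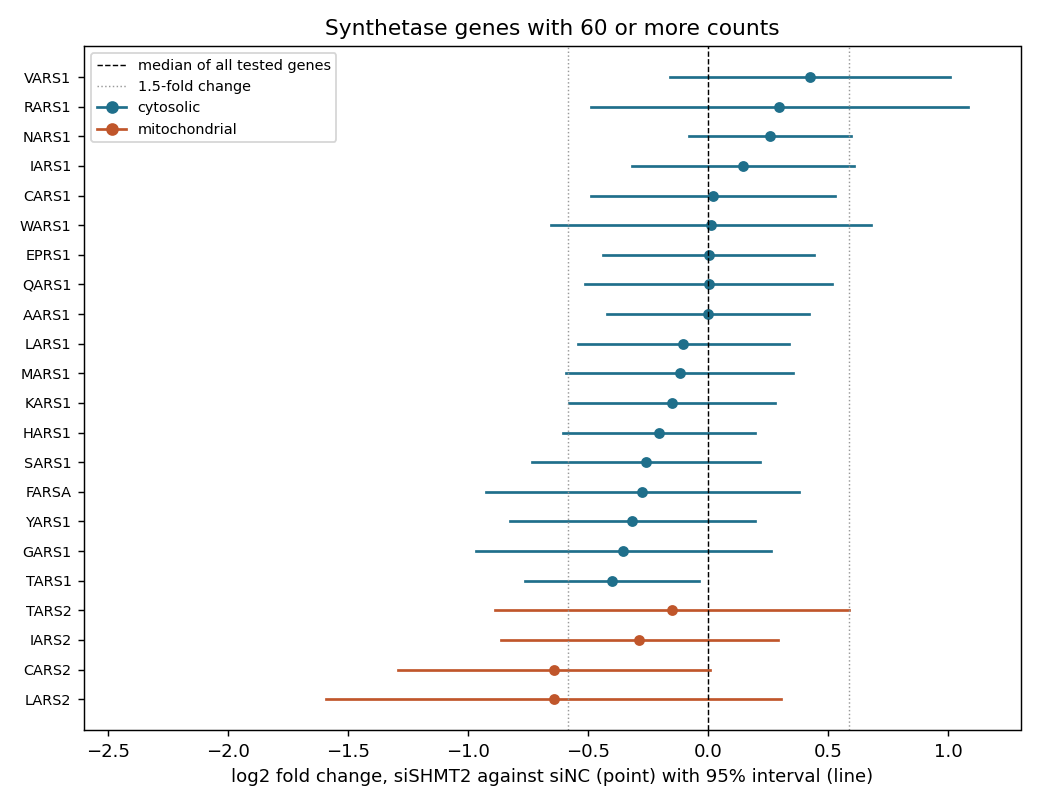
Log2 fold change of siSHMT2 against siNC for the 22 synthetase genes with at least 60 counts, cytosolic in blue and mitochondrial in orange. Lines are 95% intervals from edgeR, the dashed line is the median of all tested genes and the dotted lines mark a 1.5-fold change; of the 22 intervals only that of TARS1 does not include 0.

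The serine and glycine enzymes, which use the substrate and the product of SHMT2, were examined first. SARS1 (ENSG00000031698, chromosome 1 of GRCh38 from 109213918 to 109238182, plus strand) had 62.2, 74.6 and 75.0 CPM in siNC replicates 1 to 3 and 83.5, 48.2 and 50.1 CPM in siSHMT2 replicates 1 to 3. Both siSHMT2 replicates 2 and 3 lay below every siNC library, and siSHMT2 replicate 1 lay above every siNC library. The log2 fold change was -0.26 (standard error 0.24), with a 95% interval of the fold from 0.601 to 1.16 and an unadjusted p of 0.278 in edgeR's quasi-likelihood test. Without siSHMT2 replicate 1 it was -0.52, with an unadjusted p of 0.046 and an adjusted p of 0.998 in that test. Without siSHMT2 replicate 2 it was -0.12, with an unadjusted p of 0.655 by edgeR.

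GARS1 (ENSG00000106105, chromosome 7 from 30580533 to 30634033, plus strand) had 42.3, 33.2 and 42.0 CPM in siNC and 23.3, 24.8 and 42.6 CPM in siSHMT2. Here siSHMT2 replicates 1 and 2 lay below every siNC library and siSHMT2 replicate 3 above. The log2 fold change was -0.35 (standard error 0.30), with a 95% interval of the fold from 0.512 to 1.20 and an unadjusted p of 0.251 in edgeR's quasi-likelihood test. Without siSHMT2 replicate 3 it was -0.71, with an unadjusted p of 0.048 and an adjusted p of 0.913 in that test. Without siSHMT2 replicate 2 it was -0.21, with an unadjusted p of 0.548 by edgeR. The divergent lncRNA GARS1-DT shares 1.8% of the exonic bases of GARS1 on the opposite strand and held 177 counts against 156 for GARS1.

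SARS2 (ENSG00000104835, chromosome 19 from 38915266 to 38930763, minus strand) had 1 count in siSHMT2 replicate 3 and 0 in the other 5 libraries, so no fold change can be given. A gene on the same strand, ENSG00000269547, shares 48.2% of its exonic bases and had 0 counts. VARS2, the other mitochondrial gene with almost no signal, had 0 counts in every library, which allows up to 3.41 to 5.83 CPM in a library (3 counts, counting error only). The lncRNA ENSG00000288473, also at 0 counts, shares 4073 bases with VARS2 on the same strand, as many as its whole listed length of 4073 bases. How the authors counted reads that fall on both genes of such a pair is not given in the sources used here, so these values do not show that SARS2 or VARS2 is silent.

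TARS1 (ENSG00000113407, chromosome 5 from 33440696 to 33468091, plus strand), the cytosolic threonine enzyme, had 138, 124 and 114 CPM in siNC and 87.4, 102 and 94.0 CPM in siSHMT2. All siSHMT2 libraries lay below all siNC libraries. The log2 difference between the groups was -0.40 with a standard error of 0.18, a 95% interval of the fold from 0.589 to 0.974, an unadjusted p of 0.031 and an adjusted p of 0.999 in edgeR's quasi-likelihood test. In FPKM, the siNC libraries averaged 45.1 ± 4.94 and the siSHMT2 libraries 33.9 ± 2.10 (SD, n = 3 each). An exact permutation test, two-sided, gave p = 0.1, which is the smallest value possible with 3 libraries against 3. The direction for TARS1 held in all 16 alternatives, which reuse the same libraries. With groups that do not overlap, leaving out 1 library could hardly reverse it. The unadjusted p was 0.067 in DESeq2 and, in edgeR's quasi-likelihood test, 0.138 without siNC replicate 1, 0.074 without siSHMT2 replicate 1 and 0.056 without siSHMT2 replicate 3. No other annotated gene shares an exon with TARS1.

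NARS1 (ENSG00000134440, chromosome 18 from 57600656 to 57622213, minus strand) had 134, 128 and 107 CPM in siNC and 136, 146 and 155 CPM in siSHMT2. The siSHMT2 libraries were all higher, by a small margin between siNC replicate 1 and siSHMT2 replicate 1. Its log2 fold change was 0.26, standard error 0.17, with an unadjusted p of 0.133, and on the FPKM scale, which uses the unscaled library total, the groups overlapped. TARS1 and NARS1 were the 2 of 22 tested synthetase genes whose groups did not overlap in log2 CPM (9.09%), 1 in each direction, beside 9.20% of all tested genes, 4.55% lower and 4.65% higher. Both hold the promoter letters shown above, as do AARS1, CARS1, GARS1, IARS1 and MARS1, whose groups overlapped.

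VARS1, the cytosolic valine enzyme, had the most positive log2 fold change, 0.42 (standard error 0.29). Its values were 33.6, 41.4 and 42.0 CPM in siNC and 85.4, 40.4 and 37.6 CPM in siSHMT2. Only siSHMT2 replicate 1 lay above the siNC libraries, and without it the log2 fold change was 0.0016. Without siSHMT2 replicate 3 it was 0.63, with an unadjusted p of 0.037 and an adjusted p of 0.913 in edgeR's quasi-likelihood test. The arginine enzyme RARS1 followed with 19.9, 13.3 and 19.3 CPM in siNC and 27.2, 16.9 and 22.6 CPM in siSHMT2, a log2 fold change of 0.30 (standard error 0.39). Its groups overlapped, and siSHMT2 replicate 1 was again the highest library.

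For each of the other cytosolic genes tested the 95% interval included 0. The tyrosine enzyme YARS1 stood at -0.32 (standard error 0.25) on the log2 fold-change scale, FARSA at -0.27 (standard error 0.32) and the histidine enzyme HARS1 at -0.21 (standard error 0.20). With 1 library left out these came as near to 0 as -0.076 for YARS1 (without siNC replicate 2), -0.071 for FARSA (without siSHMT2 replicate 2) and -0.016 for HARS1 (without siSHMT2 replicate 3). AARS1, CARS1, EPRS1, QARS1 and WARS1, the enzymes for alanine, cysteine, glutamate with proline, glutamine and tryptophan, lay between -0.000645 and 0.019 on the log2 scale. Of these, AARS1 had the narrowest interval of the fold, 0.747 to 1.34, and WARS1 the widest, 0.635 to 1.60. The 7 genes of the multi-synthetase complex, EPRS1, IARS1, KARS1, LARS1, MARS1, QARS1 and RARS1, had log2 fold changes from -0.15 to 0.30 with a median of 0.00052. None reached an unadjusted p of 0.05 in edgeR's quasi-likelihood test, where the smallest was 0.453, and 3.84% of all tested genes did. The 11 tested cytosolic genes outside the complex had a median of -0.21. No difference between these groups of genes was tested.

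**Figure D3:**
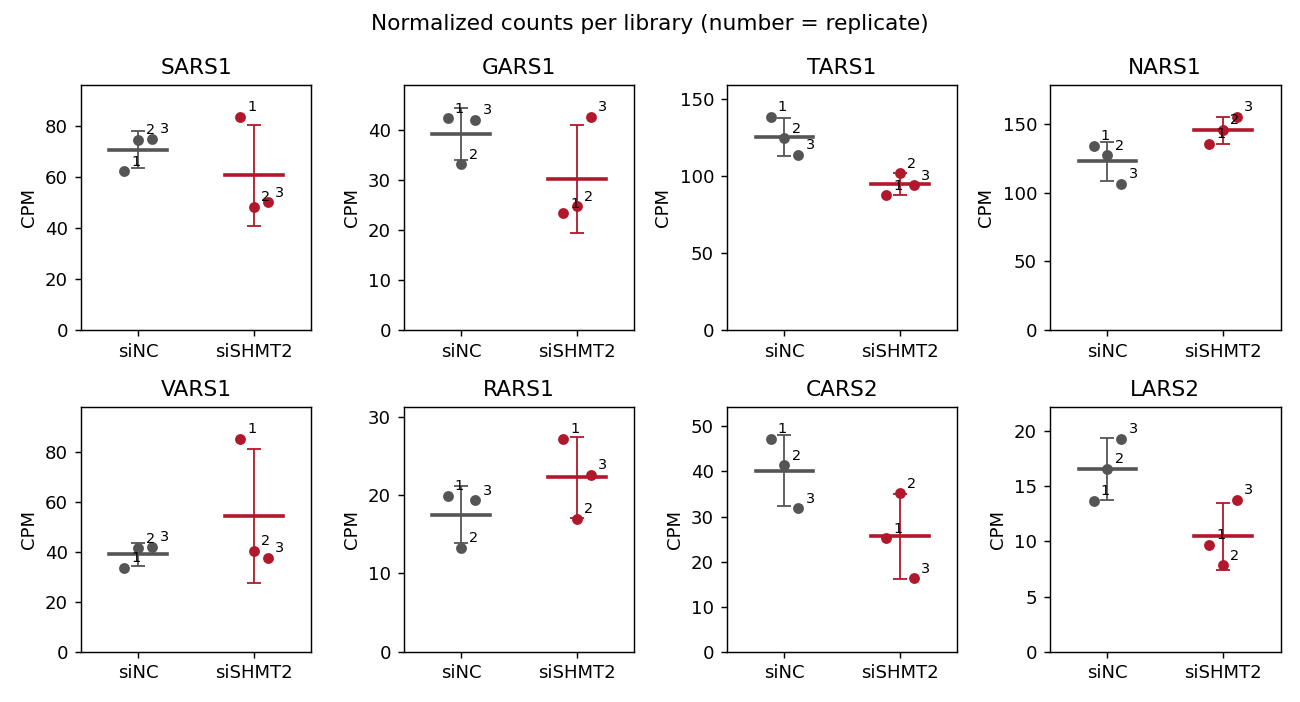
CPM after TMM scaling in each library for the serine and glycine enzymes SARS1 and GARS1, and for the genes with the 3 most negative (TARS1, CARS2, LARS2) and the 3 most positive (VARS1, RARS1, NARS1) log2 fold changes. Points are libraries with their replicate number, horizontal bars are group means and error bars are SD (n = 3); VARS1 is high in siSHMT2 replicate 1 alone, and the groups are apart for TARS1 and NARS1.

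The 4 mitochondrial genes with enough counts all had log2 fold changes below 0, and none passed an unadjusted p of 0.05 by edgeR. The shares of all tested genes were 50.2% below 0 and 3.84% under 0.05. The 4 are those that passed the filter on low counts and do not stand for all 16. The 12 mitochondrial genes under 60 counts together gave 45.7 ± 9.84 CPM in siNC and 59.6 ± 9.91 CPM in siSHMT2 (SD, n = 3 each). CARS2 (ENSG00000134905, chromosome 13 from 110641412 to 110713603, minus strand) had 47.3, 41.4 and 31.8 CPM in siNC and 25.2, 35.2 and 16.3 CPM in siSHMT2. The groups overlapped, since siSHMT2 replicate 2 was above siNC replicate 3. The log2 fold change was -0.64 (standard error 0.32), with an unadjusted p of 0.052 in edgeR's quasi-likelihood test and a 95% interval of the log2 value from -1.29 to 0.0055. With 1 library left out the log2 fold change ran from -0.99 (without siSHMT2 replicate 2, unadjusted p 0.013 by edgeR) to -0.37 (without siSHMT2 replicate 3, unadjusted p 0.272), and the unadjusted p was under 0.05 in 2 of the 6 such fits. ING1 shares 3.2% of the exonic bases of CARS2 on the opposite strand and held 181 counts against 144 for CARS2.

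LARS2, the mitochondrial leucine enzyme (ENSG00000011376, chromosome 3 from 45388561 to 45554726, plus strand), had just 60 counts in all. Its counts were 11, 10 and 17 in siNC replicates 1 to 3 and 5, 6 and 11 in siSHMT2 replicates 1 to 3. Its log2 fold change of -0.65, standard error 0.47, was the most negative of the 22 and had a 95% interval of the fold from 0.331 to 1.23. Its unadjusted p was 0.178 in edgeR's quasi-likelihood test and 0.274 in DESeq2. In limma on FPKM it was 0.040 with a pseudocount of 0.1 and 0.057 with a pseudocount of 1. IARS2 and TARS2 had smaller log2 differences, -0.29 (standard error 0.29) and -0.15 (standard error 0.37). IARS2 was at -0.61 without siSHMT2 replicate 3 and at -0.13 without siSHMT2 replicate 2, and TARS2 was at 0.18 without siSHMT2 replicate 3. LARS2 and CARS2 were the 2 of 22 tested genes with a fold change over 1.5 (9.09%), beside 7.99% of all tested genes.

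The 16 mitochondrial genes together gave 174 ± 19.9 CPM (SD, n = 3) for siNC and 157 ± 15.0 CPM (SD, n = 3) for siSHMT2, a difference within the spread of the libraries. The 19 cytosolic genes gave 1186 ± 43.2 CPM (SD, n = 3) for siNC and 1135 ± 45.5 CPM (SD, n = 3) for siSHMT2. The synthetase genes together took 0.122% to 0.139% of the counts of a siNC library and 0.117% to 0.131% of a siSHMT2 library. For siNC replicate 1, the highest, the exact binomial 95% interval was 0.131% to 0.147% (counting error only). Sums over genes were not tested.

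Genes with fewer than 60 counts are given by their counts. FARSB had 8, 7 and 10 counts in siNC and 5, 6 and 4 in siSHMT2, RARS2 9, 7 and 5 against 6, 12 and 12, and YARS2 3, 4 and 2 against 4, 5 and 5. Of the 34 synthetase genes with a count, these 3 and TARS1 had groups that did not overlap on the FPKM scale. FARSB and TARS1 (2 genes) were lower and RARS2 and YARS2 (2 genes) higher in siSHMT2. Each had p = 0.1 in the two-sided exact permutation test, which any such separation gives and which therefore adds nothing to it. Of 20807 genes with a count and a listed length, 7.00% had groups apart on this scale, 3.33% lower and 3.67% higher. This background includes the many genes that did not pass the filter on low counts. AARS2 had 6, 4 and 7 counts in siNC and 12, 6 and 2 in siSHMT2, with siSHMT2 replicate 1 again the highest. EARS2, the glutamate enzyme, summed to 32 counts, HARS2 to 32, FARS2 and NARS2 to 12 each, PARS2 and WARS2 to 10 each and MARS2 to 3. These genes did not pass the filter on low counts.

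The other genes of the pathway were taken from a list of 20, of which 8 were tested and 0 reached an unadjusted p of 0.05 by edgeR. Their smallest p by edgeR was 0.178, and 3.84% of all tested genes were under 0.05. The complex scaffolds AIMP1 and AIMP2 had log2 fold changes of 0.12 (standard error 0.22) and 0.089 (standard error 0.20), and EEF1E1, the third scaffold, had 17 counts. GATB and GATC belong with QRSL1 to the enzyme that makes mitochondrial glutamine tRNA from the product of EARS2. GATB had 11, 8 and 13 counts in siNC and 12, 14 and 17 in siSHMT2, so that its groups in CPM did not overlap. Of the 8 tested it was the 1 with groups apart (12.5%), beside 9.20% of all tested genes. The log2 fold change of GATB was 0.57, standard error 0.42, and a lncRNA with 61 counts overlaps its exons on the opposite strand. GATC stood at 0.052 (standard error 0.098) on that scale with 7289 counts, and SRSF9 on the opposite strand shares 39.1% of its exonic bases and held 2730 counts. For EIF2AK4, the kinase that senses uncharged tRNA, the value was 0.10 (standard error 0.29). Of 20 genes of the ATF4 programme, SHMT2 included, 12 were tested, 2 had an unadjusted p under 0.05, both lower in siSHMT2, where 1.90% of all tested genes were called lower, and 1 of them was SHMT2, the target of the siRNA. The median log2 fold change of the 12 was -0.054.

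Exons of 18 of the 35 synthetase genes overlap exons of a gene on the opposite strand in GENCODE v44, covering less than 5% of the exonic bases in all but 4 genes (HARS1, MARS1, WARS1 and YARS2). For 6 of the 35 the opposite-strand genes held more counts in total than the synthetase gene. They were GARS1, CARS2, EARS2, HARS2, WARS2 and YARS2, and for YARS2 the lncRNA ENSG00000286950 shares 18.1% of its exonic bases and held 87 counts against 23. The part of these overlaps in the values was not tested. SARS1, TARS1, NARS1, VARS1 and RARS1 share no exon with an opposite-strand gene. The 14 annotated pseudogenes named after these genes had 0 counts.

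**Figure D4:**
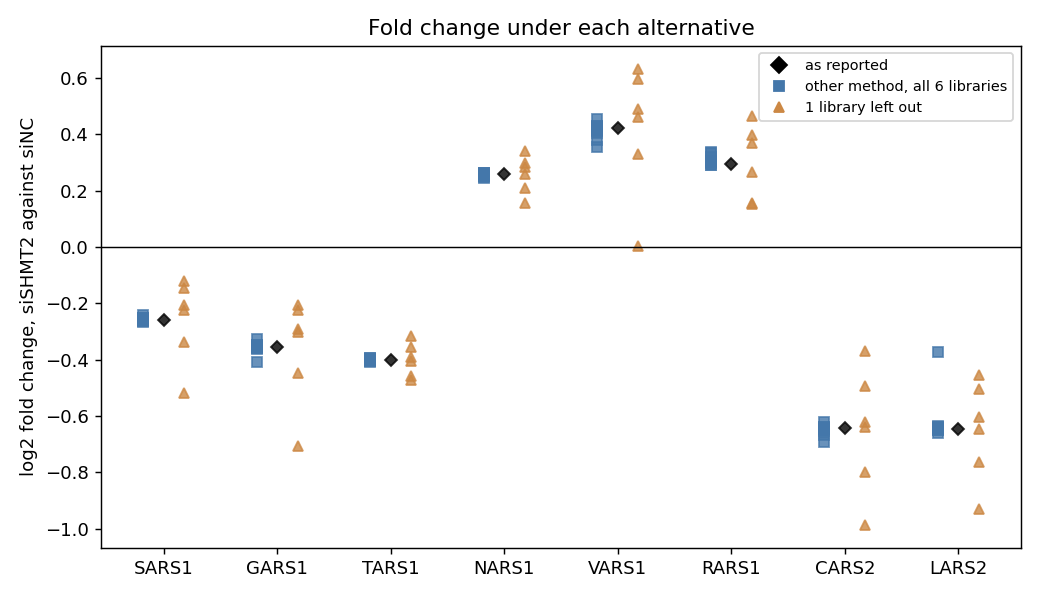
Log2 fold change of 8 synthetase genes as reported (black diamonds), with other methods on all 6 libraries (blue squares) and with 1 library left out (orange triangles). With all 6 libraries the values stay close to the reported one apart from LARS2 in 1 alternative (-0.37), and leaving out 1 library moves VARS1 from 0.42 to 0.0016.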

How the data were processed

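RNA-seq libraries of HT-1376 cells, 3 siSHMT2 and 3 siNC, were analysed from the deposited tables. The submitters' processing notes and the study's methods give FastQC 0.11.9 for read quality, fastp 0.23.4 for trimming and HISAT2 2.2.1 for alignment to GRCh38, and the labels describe a strand-specific library kit. The counting program, its strand setting and its annotation are not given in the sources used here. The count table deposited by the authors holds raw whole numbers. The FPKM table deposited by the authors holds the same counts divided by the listed gene length and the library total. For 91 genes without a listed length, which take 11.8% to 13.1% of the counts of a library, FPKM is 0.

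Symbols were matched to Ensembl identifiers with GENCODE v44, which holds 62666 of the 63241 listed genes. Groups were compared in R 4.3.3 with edgeR 4.0.16 (TMM, filterByExpr, quasi-likelihood test, two-sided, no replicate block) over all 7207 genes kept, with Benjamini-Hochberg adjustment. A fold change over 1.5 and an adjusted p under 0.05 were used, as in the study's methods. Its results name a p-value without adjustment, and calls by unadjusted p are also given. Fold changes are given for genes with 60 or more counts in all. Log2 CPM used a prior count of 2. Single genes were also compared in FPKM by an exact permutation test, whose smallest p is 0.1. The study calls the libraries biological replicates, but no source used here says that they came from separate cultures, so the p-values measure the spread between these libraries. The comparison was tested on simulated counts.

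The alternatives were DESeq2 1.42.0, RLE factors, library size only, leaving out the genes without a length, 3 other filters, limma 3.58.1 run on FPKM after adding 1 or 0.1 and taking log2, a replicate block, and each library left out. The tables hold 533689 to 890574 counts per library, a small part of the reads the study describes, with a median count of 25 for a tested gene, which limits the precision of most mitochondrial synthetases. Genes named with values were SARS1, SARS2 and GARS1, those with an unadjusted p under 0.05 or groups that did not overlap, the 3 most positive and 3 most negative fold changes, the highest and lowest levels, and the genes under 60 counts; the rest are given by lists and ranges. YARS1, FARSA, HARS1, AARS2 and GATB were named after their values were seen. The members and lists were chosen with earlier results of these data known. Promoter sequences are from RefSeq (GRCh38.p14), and 30 of 35 genes matched. Figures were drawn with matplotlib 3.10.9.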

Additional observations from a re-analysis of the deposited data

How the results depend on the processing

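The counted reads, whose strand setting is not given, limit these results: a tested gene had a median count of 25, and 13 of the 35 synthetase genes were under 60 counts. No synthetase gene had an adjusted p under 0.05 in any of the 16 alternatives. The number with an unadjusted p under 0.05, 1 as reported, was 0 with DESeq2, 2 without a filter on low counts (CARS2 and TARS1), 2 with at least 10 counts in every library (CARS2 and TARS1) and 2 with limma at a pseudocount of 0.1 (LARS2 and TARS1). With 1 library left out it ran from 0 (without siNC replicate 1) to 2, SARS1 entering without siSHMT2 replicate 1, GARS1 and VARS1 without siSHMT2 replicate 3, and CARS2 without siNC replicate 3 or siSHMT2 replicate 2. Over all tested genes that number was 277, against 117 with DESeq2, 699 without a filter and 271 to 373 with 1 library left out. The mitochondrial median of -0.47 became 0.11 without a filter and ran from -0.56 to -0.30 with 1 library left out, the cytosolic median from -0.094 to -0.034 and SHMT2 from -2.58 to -1.32. SHMT2, RARS1 and LARS2 did not pass the filter of at least 10 counts in every library. The causes were not tested.

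Deviations from the group means correlated at -0.015, 0.048 and -0.012 for equal replicate numbers and at -0.031 to 0.045 for unequal numbers. No pairing by replicate number was visible, but with few counts per gene these values cannot exclude it. With the replicate block the synthetase genes with an unadjusted p under 0.05 were 2 (CARS2 and TARS1), and those of all tested genes 304.

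Log2 fold changes near 0 changed sign. AARS1, -0.000645 as reported, was 0.0059 with DESeq2, 0.0049 with RLE factors, 0.0058 without the genes that have no length, 0.0025 with at least 60 counts and 0.022 with the replicate block. CARS1 was -0.0087 and -0.010 in limma with pseudocounts of 1 and 0.1. EPRS1 was -0.0049 with library size only, -0.0034 without a filter and -0.0047 with at least 10 counts in every library. QARS1 was -0.00020 with DESeq2, -0.0069 with library size only, -0.0013 without a filter, -0.0047 with at least 10 counts in every library, -0.033 and -0.035 in limma with pseudocounts of 1 and 0.1, and -0.014 with the replicate block. With 1 library left out AARS1 ran from -0.21 to 0.19, WARS1 from -0.14 to 0.23, TARS2 from -0.51 to 0.18, EPRS1 from -0.16 to 0.15, QARS1 from -0.20 to 0.12, CARS1 from -0.058 to 0.12 and LARS1 from -0.27 to 0.043.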
